A study of Mus musculus with 2 samples.

Results

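The cytosolic ribosomal protein genes are the genes named Rpl, Rplp and Rps that encode the proteins of the ribosome outside mitochondria. They were chosen by their symbols alone, which took the numbered Rpl and Rps genes, Rplp0 to Rplp2, Rpsa and the paralogs whose names end in l, and which left out the mitochondrial ribosome (Mrpl and Mrps) and the processed copies with -ps names. The name rule found 79 of the 15474 genes in the filtered counts, 49 of the large and 30 of the small subunit. Of these, 67 had at least 200 UMIs over both libraries (40 large, 27 small) and were compared one by one, and the other 12 entered only the sums.

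The counts came from SORT-seq, a plate-based method that counts unique molecular identifiers (UMIs) at the polyadenylated end of transcripts, of single cells dissociated from the dentate gyrus of C57BL/6J mice aged 4 to 5 weeks. The study asked whether cells preserved in methanol (MeOH) keep the transcript profile of fresh cells. In 1 library, cells pooled from 3 mice were sorted fresh, with dead cells excluded by a stain, and in the other, cells pooled from 4 further mice were fixed in MeOH, stored for 3 weeks, rehydrated and sorted. Each plate had 384 barcodes, and 64 fresh and 132 MeOH-fixed cells passed the filter of the study. With 1 library per condition, no test of the conditions was possible and no p-value is given, and every interval is an exact 95% interval for counting error only. Neither animals nor plates were replicated, so plate, mice, sort gate and fixation cannot be told apart.

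Each ribosome is built from a large subunit, which forms peptide bonds, and a small subunit, which reads the mRNA. Their proteins are needed in nearly equal numbers, one of each per ribosome for most of them, with the acidic stalk proteins Rplp1 and Rplp2 as the main exception. Most of their mRNAs begin with an unbroken stretch of pyrimidines, the terminal oligopyrimidine motif, through which mTOR signalling adjusts their translation, and growing or dividing cells hold more of them than resting cells.

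The 79 genes lay on 19 chromosomes, with 14 of them on chromosome 7, so that they share no common locus. For 59 of the 79, RefSeq (GRCm38.p6) gave the sequence around the annotated start. A run of at least 8 unbroken C or T bases beginning with C was searched on the coding strand within 30 bases of the start. It was found in 31 of the 59, or 52.5%. Among the 752 genes with an entry and at least 200 UMIs it was found in 28.6%, and among all 27025 genes with an entry in 20.6%. The windows of 30 bases below show the run in capitals for the abundant members Rpl4, Rpl13, Rps9 and Rps24 and for Rpl27a, Rpl11 and Rps25, which are among the 5 members with the highest ratios of MeOH-fixed to fresh cells. Rplp0 and Rps3, the members with the lowest ratios, are shown for contrast, since their longest run had 5 bases.
Rpl4, chr9:64173361-64173390, plus strand: gtgacaagtCTTTCCTTTTCCTgtgggagc
Rpl13, chr8:123102324-123102353, plus strand: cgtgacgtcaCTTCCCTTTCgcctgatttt
Rps9, chr7:3704025-3704054, plus strand: aaccgccttgtCTCTCTTTgtctcgggcct
Rps24, chr14:24490715-24490744, plus strand: gtcctcttttCCTCCTCTCCagctccggcg
Rpl27a, chr7:109519186-109519215, plus strand: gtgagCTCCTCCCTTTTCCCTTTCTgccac
Rpl11, chr4:136053357-136053386, minus strand: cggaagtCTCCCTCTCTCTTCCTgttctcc
Rps25, chr9:44407684-44407713, plus strand: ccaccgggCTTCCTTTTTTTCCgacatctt
Rplp0, chr5:115559467-115559496, plus strand: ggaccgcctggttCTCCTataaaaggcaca
Rps3, chr7:99483674-99483703, minus strand: cgcggcgtcattgCTCCCgccctatatacc
The run had 20 bases in Rpl27a, 16 in Rpl11, 14 in Rps25, 13 in Rpl4, 10 in Rpl13 and Rps24 and 8 in Rps9. In Rps24 the run was counted from the first C inside the searched window. The pyrimidines continue before that C and beyond the edge of the window, so the stretch is longer than counted. Long runs did not go with high ratios throughout, since Rps2 and Rpl36a, also among the 5 highest ratios, had runs of 6 and 5 bases, and Rps12, among the members past 1.5-fold lower, had a run of 11. The 26 compared members with such a run had a median log2 ratio of MeOH-fixed to fresh cells of -0.22, and the 23 without one of -0.16. At equal weight of 6 identities these medians were 0.38 and 0.28, so that both the signs and the order of the groups turned. A run is a match of letters and not a mapped start site, and no run in this window says nothing about the mRNA that these cells made.

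Summed over the filtered cells, the fresh library had 534122 UMIs and the MeOH-fixed one 729018. Per cell the fixed library was the shallower one, with a median of 3451.5 against 6318 UMIs. Of the 31 markers used to check the deposited identities, 27 were highest in their own identity in the MeOH-fixed library and 23 in the fresh library. These are the genes that the study listed when it named the same clusters, so a match is partly built in. The 2 fresh cells labelled mature neurons went against their label, with 4 of 5 markers at 0 and none highest there, and the summed markers of the fresh immature neurons (1550 CPM, that is per 1e+06 UMIs) lay below their sum in fresh nIPCs and neuroblasts (1639 CPM). Values at equal weight of the identities and the main counts of identities are therefore given with and without mature neurons. In 24 wells a cell passed the filter on both plates. The identities are clusters of the same counts, so differences between them are descriptions.

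Pooled over all filtered cells, ribosomal protein genes gave fewer of the UMIs of MeOH-fixed than of fresh cells. They held 17481 of 534122 UMIs in the fresh library, or 3.27% (3.23 to 3.32), and 20322 of 729018 in the MeOH-fixed library, or 2.79% (2.75 to 2.83). The log2 ratio of the shares was -0.23 (-0.26 to -0.20). Within the identities the direction was the opposite: fixed cells had the higher share in each of the 8 identities, and in 7 of them the intervals were apart (7 and 6 of 7 without mature neurons).

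Microglia, the resident macrophages of the brain, had the highest share in both libraries, at 5.45% (5.24 to 5.66) in 10 fresh and 6.72% (6.32 to 7.13) in 7 MeOH-fixed cells. The neuronal intermediate progenitor cells (nIPCs) and neuroblasts, the dividing and newly committed cells of the neurogenic lineage, followed with 5.35% (5.24 to 5.45) in 16 fresh and 5.72% (5.57 to 5.88) in 21 MeOH-fixed cells. Endothelial cells held the third place, with 2.66% (2.44 to 2.90) in 6 fresh and 4.57% (4.29 to 4.86) in 8 MeOH-fixed cells. These 3 identities stood in the same order in both libraries, and the intervals of the first and second did not separate them in the fresh cells.

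Oligodendrocyte precursor cells (OPCs) and immature neurons exchanged places next in the order. OPCs had 1.76% (1.64 to 1.87) in 5 fresh and 2.71% (2.56 to 2.86) in 10 MeOH-fixed cells. Immature neurons had 2.39% (2.29 to 2.48) in 5 fresh and 2.55% (2.50 to 2.61) in 25 MeOH-fixed cells. The MeOH-fixed values of this pair lay close together, with overlapping intervals, whereas the pooled fresh values were apart. Single fresh cells of the pair overlapped, with medians of 2.18% in immature neurons and 2.09% in OPCs. Pooled values weight deep cells most. Fresh immature neurons ranged from 971 to 31563 UMIs per cell, and fresh OPCs from 2925 to 25296.

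The myelinating oligodendrocytes had 1.66% (1.50 to 1.83) in 2 fresh and 1.90% (1.81 to 1.99) in 13 MeOH-fixed cells. Astrocytes and radial glia-like cells (RGLs), the neural stem cells of the dentate gyrus, had 1.27% (1.2 to 1.34) in 18 fresh and 1.64% (1.55 to 1.73) in 29 MeOH-fixed cells. Mature neurons came last, with 0.596% (0.468 to 0.749) in the 2 fresh cells of doubtful label and 1.56% (1.47 to 1.64) in 19 MeOH-fixed cells, which overlapped the astrocytes. The nIPCs and neuroblasts thus held 4.21 times the share of astrocytes and RGLs when fresh and 3.49 times when fixed.

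**Figure D1:**
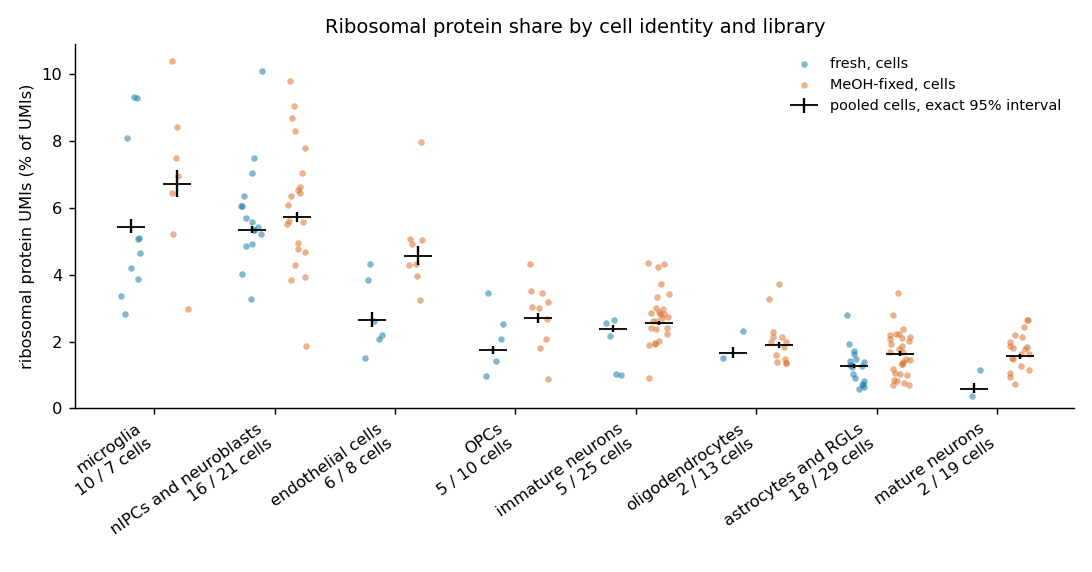
Share of UMIs from the 79 ribosomal protein genes (y axis, %) in each filtered cell (points) by identity and library, with the pooled value of each identity (black line) and its exact 95% interval for counting error. Microglia and nIPCs and neuroblasts lie highest in both libraries, and the pooled MeOH-fixed value is above the fresh one in all 8 identities, while the single cells overlap in each of them.

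Single cells varied more than these pooled values. Fresh nIPCs and neuroblasts ranged from 3.26% over a median of 5.52% to 10.1%, and MeOH-fixed ones from 1.87% over 6.09% to 9.80%. Fresh astrocytes and RGLs ranged from 0.588% over 1.29% to 2.81%, and MeOH-fixed ones from 0.689% over 1.69% to 3.47%. The single cells of the libraries thus overlapped in both identities, and in fresh cells the lowest of the nIPCs and neuroblasts still lay above the highest of the astrocytes and RGLs. Endothelial cells ranged from 1.51% to 4.32% when fresh and from 3.24% to 7.99% when fixed.

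The makeup of the libraries moved with the pooled difference. The nIPCs and neuroblasts and the microglia, which have the highest shares, held 41.6% of UMIs in the fresh but 14.1% in the MeOH-fixed library. They gave 68.2% of the ribosomal protein UMIs when fresh and 29.7% when fixed. Immature neurons took up 18.0% of fresh UMIs and 41.4% of those after fixation. With the identities of both libraries weighted as in the fresh library, the share was 3.27% when fresh and 3.81% when fixed (log2 ratio 0.22), and weighted as in the MeOH-fixed library the values were 2.35% and 2.79% (0.25). With equal weight for each identity the shares were 2.64% and 3.42% (0.37), and without mature neurons 2.93% and 3.69% (0.33). Without nIPCs, neuroblasts and microglia, the pooled values were 1.78% and 2.28% (0.36). The sign of the pooled difference therefore changed with the weights of the identities.

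**Figure D2:**
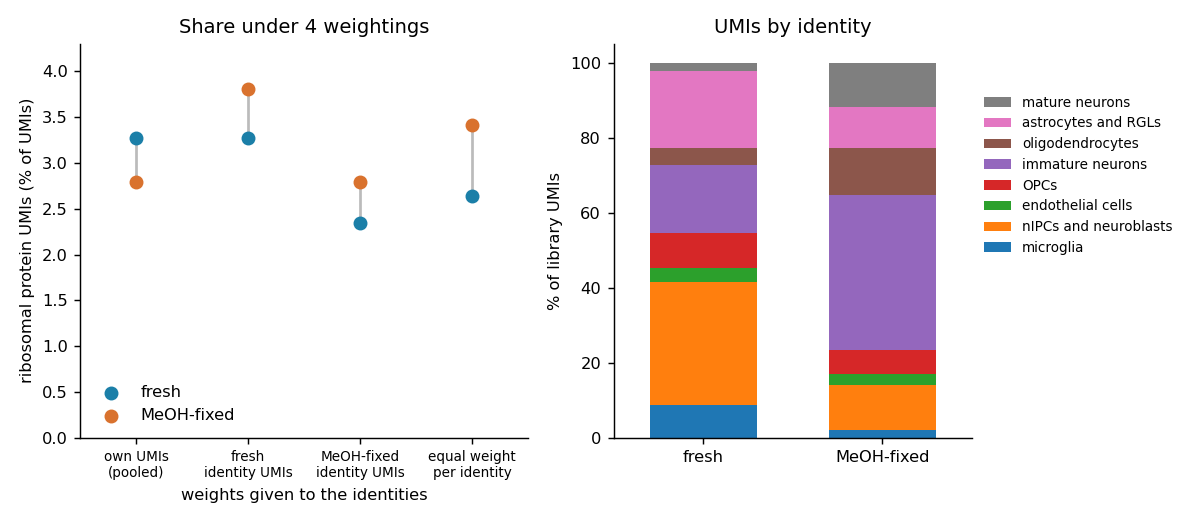
Left, ribosomal protein share of UMIs (y axis, %) in the fresh and MeOH-fixed library when identities carry the weights named on the x axis; right, percent of library UMIs by identity. The MeOH-fixed library is below the fresh one only with its own UMIs (2.79% against 3.27%) and above it under the other 3 weightings.

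The depth of the cells also moved with the share in some identities. Within identities with at least 6 cells, the rank correlation of a cell's share with its UMIs, given as a description, was below 0 in 4 of 4 fresh and 8 of 8 MeOH-fixed identities, but its size varied. It was -0.71 in the 16 fresh and -0.43 in the 21 MeOH-fixed nIPCs and neuroblasts, and close to 0 in astrocytes and RGLs (-0.010 and -0.048) and in MeOH-fixed microglia (-0.036). The share contains the UMIs of the cell in its denominator. Of cells with 2000 to 8000 UMIs, 5 identities had at least 2 in each library. Among these the share remained higher in MeOH-fixed microglia (6.53% in 5 cells against 5.34% in 8 cells) and endothelial cells (4.1% in 4 cells against 2.53% in 5 cells). In astrocytes and RGLs the share was 1.60% in 18 MeOH-fixed against 1.53% in 12 fresh cells, a log2 ratio of 0.07, against 0.37 over all their cells. The share was lower in MeOH-fixed nIPCs and neuroblasts (5.56% in 16 cells against 6.26% in 3 cells) and in OPCs (2.73% in 8 cells against 2.86% in 3 cells). The part of depth in the higher share of MeOH-fixed identities was not tested further.

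In numbers of molecules the MeOH-fixed cells held less. In 6 of 8 identities (6 of 7 without mature neurons) a fixed cell had the lower median of ribosomal protein UMIs, for example 209 against 612 in nIPCs and neuroblasts and 32 against 73 in astrocytes and RGLs. It was higher in endothelial cells (111.5 against 86) and in the doubtful mature neurons (38 against 36.5). In 7 of 8 identities, or 6 of 7 without mature neurons, the ratio of fixed to fresh medians was lower for all UMIs than for ribosomal protein UMIs. Per 100 counts of the spike-in RNA added to each well, nIPCs and neuroblasts gave 39.5 ribosomal protein UMIs when fresh and 19 when fixed, and microglia 14.6 and 13.2. In 6 identities a higher share thus went together with fewer ribosomal protein UMIs per cell.

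Taken gene by gene over the pooled cells, 56 of the 67 compared members had a lower and 11 a higher CPM in MeOH-fixed cells, where 36.3% of all genes were lower. The median log2 ratio was -0.20 for the members and 0.24 for all 1022 genes with at least 200 UMIs. Past 1.5-fold, 7 members were lower, 3 of the large and 4 of the small subunit, and 0 were higher, where 11.8% of the 1022 genes were lower and 29.1% higher. Those lower were 10.4% of the compared members, near the background. The intervals of the 2 libraries were apart for 20 members, or 29.9%, all lower (16.4% of all genes were lower and 36.2% higher by that rule). Rpl12, with a log2 ratio of -0.60, was the last member past 1.5-fold, and Rps10, with -0.58, the first within it.

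Among the large subunit, Rpl4, a protein lining the exit tunnel, had the most UMIs, 583 in fresh and 715 in MeOH-fixed cells, or 1092 CPM (1005 to 1184) and 981 CPM (910 to 1055). Rpl41, which encodes the smallest ribosomal protein, had 753 CPM (681 to 830) and 709 CPM (649 to 773). Rpl4 and Rpl41 thus had overlapping intervals. Rpl13 (775 and 658 CPM), Rpl10 (758 and 642 CPM), Rpl17 (788 and 594 CPM) and Rpl21 (665 and 582 CPM) were further abundant members of the subunit. Of these, the CPM intervals were apart for Rpl17 only. By the interval of the log2 ratio, Rpl13 (-0.43 to -0.04) and Rpl10 (-0.44 to -0.04) also lay below 0, while that of Rpl21 (-0.40 to 0.015) included 0.

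The stalk, which recruits the elongation factors, is built from Rplp0 with Rplp1 and Rplp2 bound to it. Rplp0 had the lowest ratio of all members, with 339 UMIs or 635 CPM (569 to 706) in fresh and 277 UMIs or 380 CPM (337 to 427) in MeOH-fixed cells (log2 ratio -0.74, -0.97 to -0.51). At equal weight of the 6 identities with at least 5 cells in each library, its log2 ratio was 0.11. Its partner Rplp1 had 726 CPM (656 to 802) and 708 CPM (648 to 772), with overlapping intervals, and Rplp2 had 0 and 1 UMI. Rplp0 had 1240 CPM in fresh and 1101 CPM in fixed nIPCs and neuroblasts, against 971 and 1156 CPM in microglia. Rplp1 was highest in microglia in both libraries, at 2329 and 2720 CPM, against 808 and 1101 CPM in nIPCs and neuroblasts. Rplp0 thus stood at like levels in these identities, where Rplp1 was higher in microglia.

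Of the small subunit, Rps9, which binds early in assembly, had 901 CPM (822 to 985) in fresh and 573 CPM (520 to 631) in MeOH-fixed cells (log2 ratio -0.65). Rps24 had 734 CPM (663 to 810) and 619 CPM (563 to 678). Rps3, which lies at the entry of the mRNA channel and also takes part in DNA repair, had 455 CPM (400 to 516) and 283 CPM (245 to 324). Rps12 (509 and 333 CPM) had a log2 ratio of -0.61. Together with Rpl22 (243 and 156 CPM), Rpl12 (363 and 240 CPM) and Rplp0, the members Rps9, Rps3 and Rps12 were past 1.5-fold. At equal weight of the 6 identities the log2 ratios of Rps9, Rps3, Rps12 and Rpl22 lay above 0 (0.06, 0.06, 0.38 and 0.08), and that of Rpl12 was -0.15.

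The highest ratio belonged to Rps2, with 506 CPM (447 to 570) in fresh and 590 CPM (535 to 648) in MeOH-fixed cells (log2 ratio 0.22). It was followed by Rpl11 (389 and 429 CPM), which also binds and restrains Mdm2, by Rps25 (337 and 369 CPM), Rpl27a (502 and 546 CPM) and Rpl36a (174 and 188 CPM). All 5 had overlapping intervals, so that none was higher beyond counting error in the pooled cells. At equal weight of the 6 identities, 63 of the 67 members were higher in MeOH-fixed cells, where 58.3% of all genes were higher, and the median log2 ratio was 0.32 for the members and 0.12 for all genes. By this weighting 16 members were higher by more than 1.5-fold and 0 lower (15% and 10.3% of all genes), led by Rpl39 (1.09), Rpl23 (0.91), Rpl36 (0.83) and Rps25 (0.80). In microglia, Rpl39 had 431 CPM (20 UMIs) when fresh and 1768 CPM (26 UMIs) when fixed. Rpl36 had 280 CPM (13 UMIs) and 1020 CPM (15 UMIs) there, but 461 and 329 CPM in nIPCs and neuroblasts. Over the 8 identities Rpl39 was higher after fixation in 7 and Rpl36 in 6. The weighted ratios carry no interval, and few UMIs in a single identity can move them. The 4 members lower at equal weight were Rps10, Rpl12, Rps27a and Rpl17. Rpl11, Rpl13, Rpl24, Rps21, Rps25 and Rps29 had the higher CPM after fixation in each of the 8 identities, the fresh mature neurons and oligodendrocytes being 2 cells each. Some of these differences were very small, as for Rpl13 in immature neurons (531 CPM when fresh and 533 CPM when fixed). Rpl11, Rps21 and Rps25 had 0 UMIs in fresh mature neurons. The share of all genes that were higher in each of the 8 identities was not counted, so no background stands beside these members.

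**Figure D3:**
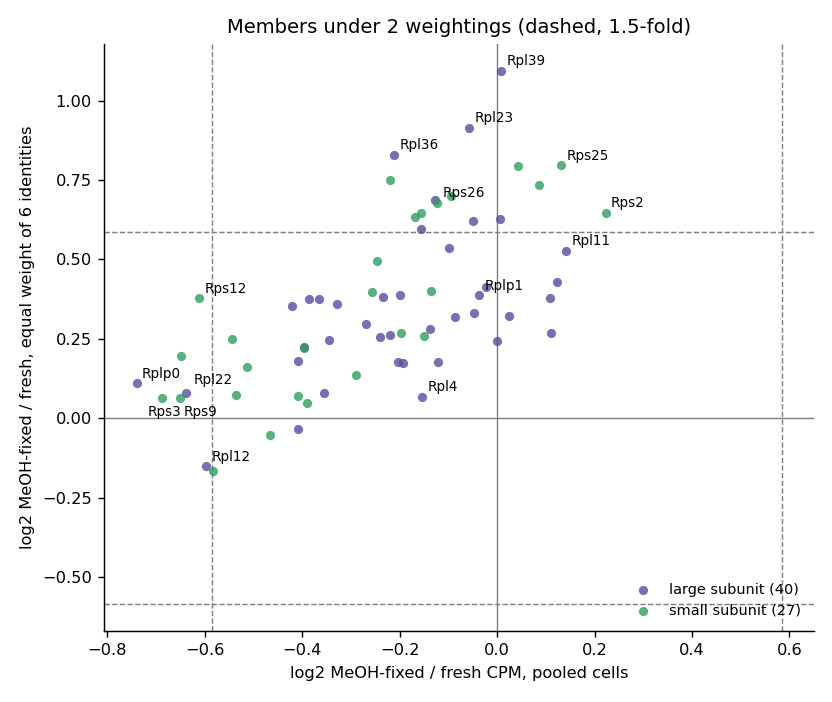
Log2 ratio of MeOH-fixed to fresh cells of the 67 members with at least 200 UMIs, for pooled cells (x axis) and at equal weight of 6 identities (y axis), coloured by subunit, with 1.5-fold as dashed lines. Pooled ratios run from -0.74 (Rplp0) to 0.22 (Rps2), and 63 members lie above 0 on the y axis.

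The large and small subunit moved in the same direction in the pooled cells. The large subunit gave 1.98% (1.94 to 2.02) of fresh and 1.73% (1.70 to 1.76) of MeOH-fixed UMIs, and the small subunit 1.29% (1.26 to 1.32) and 1.05% (1.03 to 1.08). The ratio of large to small subunit UMIs was 1.53 (1.48 to 1.58) in fresh and 1.64 (1.60 to 1.69) in MeOH-fixed cells. Within identities it was lower in microglia, at 1.43 in fresh and 1.38 in MeOH-fixed cells, than in immature neurons, at 1.81 and 1.74. In MeOH-fixed cells it was higher in nIPCs and neuroblasts (1.58 against 1.45) and OPCs (1.76 against 1.55), nearly equal in mature neurons and lower in the other 5 identities, with overlapping intervals throughout, which in nIPCs and neuroblasts met only at their ends (1.49 to 1.51).

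The members were mostly lowest in the same identity but divided in where they were highest. Among the 6 identities with at least 5 cells in each library, the CPM over the cells of both libraries was highest in microglia for 35 of 67 members (14% of all genes), in nIPCs and neuroblasts for 30 (18.8%) and in endothelial cells for Rpl38 and Rps6 (7.63%). It was lowest in astrocytes and RGLs for 61 members (25.9% of all genes) and in OPCs for 6 (9.1%). Taking each library alone, 20 members were highest in microglia in both (7.14% of all genes), 15 in nIPCs and neuroblasts (11.4%) and 2 in endothelial cells (3.33%). Immature neurons, where 37.2% of all genes had their highest level, were highest for no member.

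The spread over the identities differed between members, with a ratio of the highest to the lowest of 6 identities between 2.63 for Rpl8 and 12.5 for Rpl32 and a median of 4.58. Rpl32 had 582 CPM in fresh and 612 CPM in MeOH-fixed microglia against 46 and 50 CPM in astrocytes and RGLs, from 5 and 4 UMIs there. Rps12 had 1122 and 1564 CPM in microglia against 73 and 273 CPM in astrocytes and RGLs. Rps26 had 370 and 488 CPM in nIPCs and neuroblasts against 27 and 62 CPM in astrocytes and RGLs. These 3 kept the direction in both libraries, on few UMIs in the low identity. Rpl36a (8.57) and Rpl12 (7.59) complete the 5 widest members, and Rpl12 was lowest in OPCs, with 3 fresh and 6 MeOH-fixed UMIs.

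Rps6, the small subunit protein phosphorylated by S6 kinases, had 1031 CPM in fresh and 1458 CPM in MeOH-fixed endothelial cells, against 859 and 863 CPM in nIPCs and neuroblasts. Rpl38, a large subunit protein known for its role in translating Hox mRNAs, had 876 and 1118 CPM in endothelial cells, against 751 and 704 CPM in nIPCs and neuroblasts and 474 and 476 CPM in microglia. These endothelial values rest on 17 to 30 UMIs per library.

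**Figure D4:**
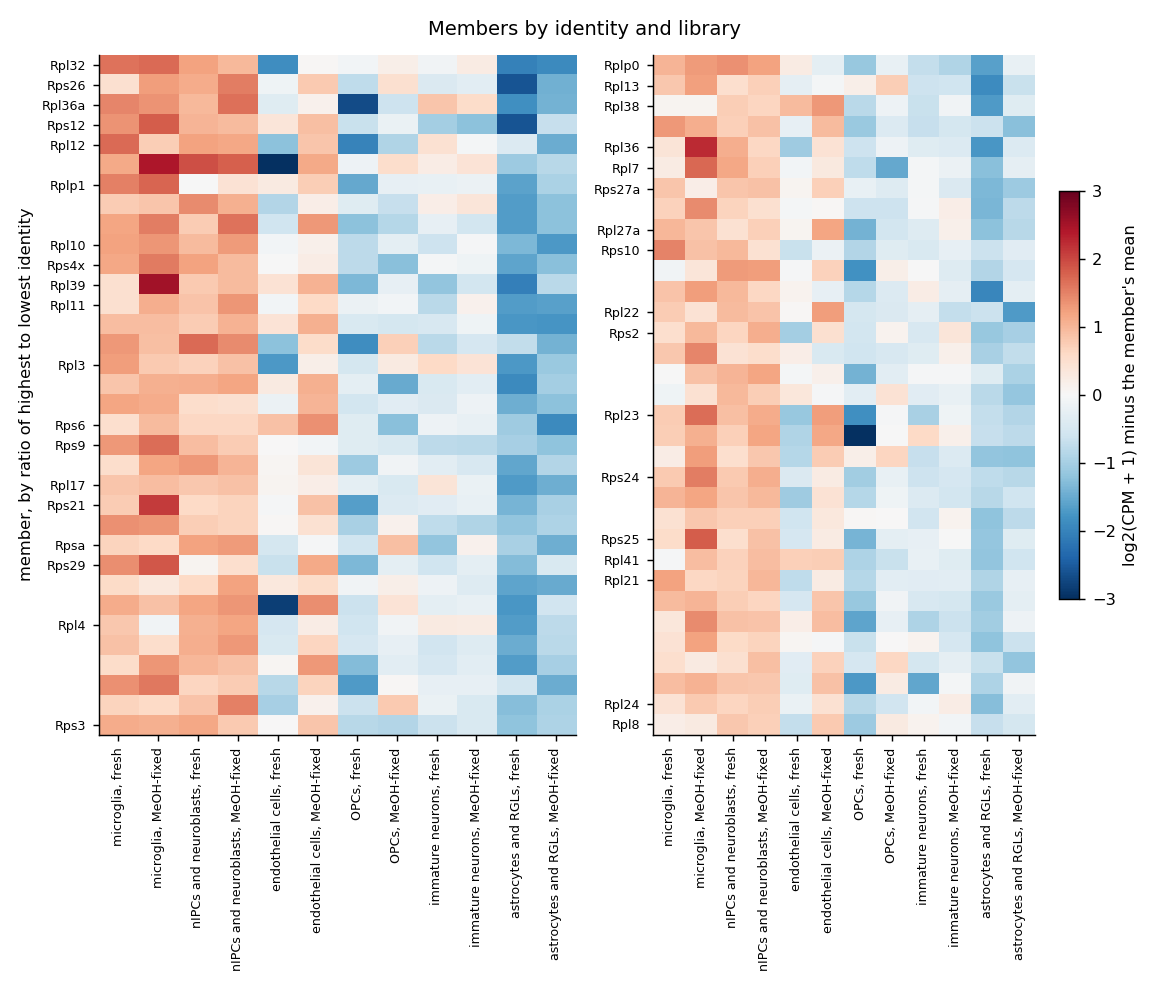
Level of the 67 members with at least 200 UMIs (rows, in falling order of the ratio of highest to lowest identity, left then right) in 6 identities of each library (columns), as log2(CPM + 1) minus the member's mean over the columns, with labels for members named in the text. Microglia and nIPCs and neuroblasts are above the mean (red) for most members, and astrocytes and RGLs below it (blue).

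UMI counts are molecules and were not divided by length. The levels of the 67 members ranged from 174 to 1092 CPM in fresh and from 156 to 981 CPM in MeOH-fixed cells. Their log2 CPM had a Pearson correlation of 0.91 and a Spearman correlation of 0.89 between the libraries, as a description across genes that share depth and cells. The 10 members with the most UMIs gave 24.6% of all ribosomal protein UMIs. The highest level was 6.27 times the lowest in each library.

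The 12 members below 200 UMIs included genes whose proteins belong to every ribosome. Rpl26 had 1 UMI over both libraries, Rpl37 and Rplp2 had 1 each, Rpl34 had 6, Rpl30 had 9, Rps15a had 27 and Rpl31 had 172. Reads that map equally well to several places were discarded before deposit, and many ribosomal protein genes have processed pseudogenes. In 78 members with an annotated principal transcript, the median share of 60-base windows in the last 300 bases that also occur in another annotated gene was 57.1%. It was 52.3% in Rpl34, 58.5% in Rpl26, 75.1% in Rplp2 and 80.1% in Rpl30 but 0% in Rpl37. It was 100% in Rpl10, which had 873 UMIs, and in Rps12 and Rpl36a, so that the counts of these genes are uncertain. Over the 78 members its rank correlation with the UMIs was -0.007, as a description. The near-zero genes are therefore listed as counted, and whether their reads were lost in mapping was not tested.

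Paralogs with a restricted or partly replaced role were low, apart from Rpl36al, which was not far below its parent. Rpl3l, the muscle counterpart of Rpl3, had 0 UMIs in both libraries, which allows up to 3 UMIs per library, while Rpl3 had 331 fresh and 415 MeOH-fixed UMIs. Rpl7l1 had 19 and 28 UMIs against 287 and 304 of Rpl7. Rps27l, a p53 target, had 20 and 38 UMIs. Rpl36al, a retrogene of Rpl36a, had 61 and 110 UMIs against 93 and 137 of Rpl36a, so that it gave the highest count of these paralogs. Rps4l, listed by RefSeq as a transcribed pseudogene, was counted under its older symbol Rps4y2, outside the name rule, with 13 UMIs in either library, while its counterpart Rps4x had 290 fresh and 273 MeOH-fixed UMIs. Rpl10l, Rpl22l1, Rpl39l and Rps27 were not matched to a counted gene by name or older symbol and were not analysed here.

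Of the genes outside the name rule that belong to the ribosome, Rps3a1 had 464 CPM (408 to 526) in fresh and 470.5 CPM (422 to 523) in MeOH-fixed cells. Fau, whose product is cleaved to the small subunit protein eS30, had 446 and 362 CPM. Gnb2l1, the older symbol of the small subunit scaffold Rack1, had 399 (347 to 456) and 255 CPM (220 to 295). Gnb2l1 was thus lower beyond counting error. The CPM intervals of Rps3a1 and Fau overlapped, which does not show that their levels were equal. At equal weight of the 6 identities the log2 ratio of Gnb2l1 went from -0.64 to -0.07, with a higher level after fixation in 5 and a lower one in 3 of the 8 identities.

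Deeper cells show more genes, so the members detected per cell were counted after thinning each cell to 800 UMIs. The median was 18 members per fresh and 16 per fixed cell (52.5 and 50.5 as counted). In nIPCs and neuroblasts it was 32.5 and 34, in microglia 26.5 and 36, in endothelial cells 16.5 and 25, and in astrocytes and RGLs 7.5 and 11. After thinning, fixed cells had the higher median in 7 of 8 identities (6 of 7 without mature neurons) and lower in oligodendrocytes (13 against 15.5 in 2 fresh cells).

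Barcodes that failed the filter had a lower ribosomal protein share than the cells that passed. It was 2.55% (2.47 to 2.63) in 320 failed fresh barcodes and 2.07% (1.98 to 2.17) in 252 failed MeOH-fixed barcodes, against 3.27% and 2.79% in the cells. Mitochondrial transcripts moved with this, at 40.9% of UMIs in failed fresh barcodes against 13.9% in cells, and 28.8% against 10.2% in the MeOH-fixed library. Without mitochondrial genes in the total, the share of failed fresh barcodes was above that of the cells (4.32% against 3.80%), and that of failed MeOH-fixed barcodes stayed below (2.91% against 3.10%). On each plate 8 of the 384 wells were left empty as controls, and these were not set apart from the failed barcodes.

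The ribosomal protein genes were set beside 3 other lists of the translation machinery. Translation factors, led by the elongation factor Eef1a1 and by Tpt1, gave 1.13% (1.10 to 1.16) of fresh and 1.10% (1.07 to 1.12) of MeOH-fixed UMIs from 38 genes (log2 ratio -0.04, -0.09 to 0.006), and 8 of 8 identities had a higher share when fixed (7 of 7 without mature neurons). The interval of the ratio lay above 0 in 4 of these 8, and by the same rule in 8 of 8 for the ribosomal protein genes. The shares of translation factors in microglia were nearly equal (log2 ratio 0.00042). Of the 18 translation factor genes with at least 200 UMIs, 2 were higher and 3 lower past 1.5-fold, where 29.1% and 11.8% of all genes were. Tpt1 had 1269 CPM (1176 to 1369) and 859 CPM (793 to 929), and Eef1a1 had 1945 (1829 to 2067) and 1872 CPM (1774 to 1974). In the pooled cells Tpt1 was lower after fixation beyond counting error and Eef1a1 was not. At equal weight of the 6 identities both log2 ratios were above 0, at 0.26 for Tpt1 and 0.29 for Eef1a1.

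The 27 ribosome biogenesis genes gave 0.171% (0.161 to 0.183) and 0.188% (0.178 to 0.198) of UMIs. Their share was higher when fixed in 5 of 8 identities (4 of 7 without mature neurons), with the interval above 0 in 3 of the 8. Of these genes 2 had at least 200 UMIs, neither past 1.5-fold. The 2 were the nucleolar proteins Npm1 (292 and 372 CPM) and Ncl (318 and 263 CPM). The 76 mitochondrial ribosomal protein genes, none with 200 UMIs, gave 0.265% (0.251 to 0.279) and 0.327% (0.314 to 0.340), a log2 ratio of 0.31 (0.21 to 0.40), and were higher when fixed in 8 of 8 identities (7 of 7 without mature neurons), with the interval above 0 in 5 of the 8. Mrpl42 (93.6 and 100.1 CPM) and Mrpl18 (61.8 and 98.8 CPM) had the most UMIs of that list. In the pooled cells, the cytosolic ribosomal proteins were thus the list with the lowest ratio, and the mitochondrial ribosome had intervals apart in the opposite direction.

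**Figure D5:**
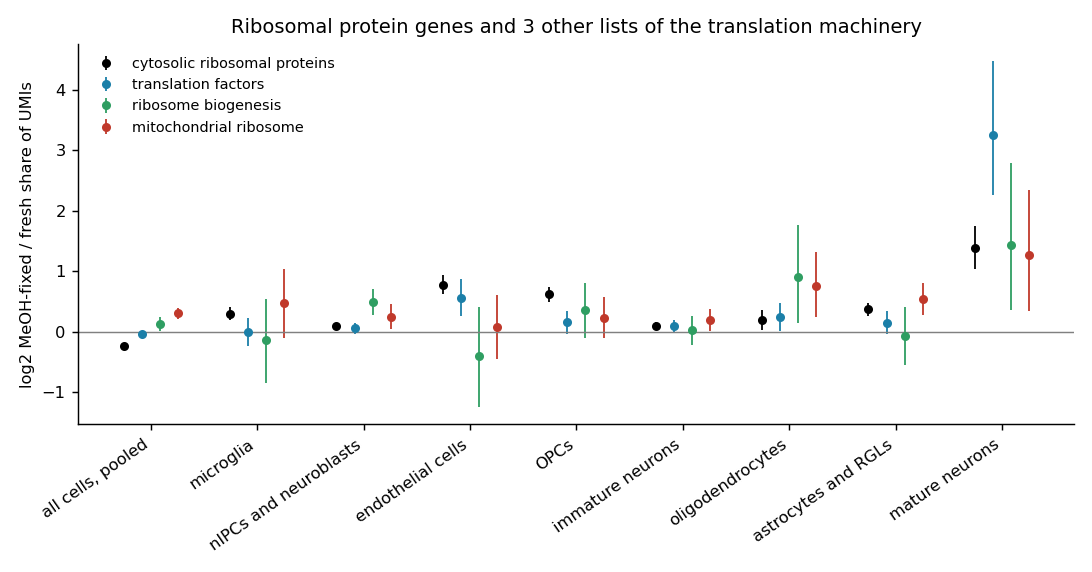
Log2 ratio of MeOH-fixed to fresh share of UMIs (y axis) for the ribosomal protein genes and 3 other lists, in pooled cells and in each identity (x axis), with 95% intervals for counting error. The cytosolic ribosomal proteins are at -0.23 in pooled cells and above 0 in all 8 identities, and the fresh mature neurons and oligodendrocytes are 2 cells each.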

How the data were processed

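Per the labels and methods, SORT-seq reads were aligned to GRCm38 with STAR, multi-mapping reads were dropped, and UMIs were collapsed. The deposited values are expected counts: the authors corrected UMI numbers for the 4096 possible UMIs. Cell identities are the authors' Seurat 4.1.0 (R 4.2.0) clusters. Their filter required 800 to 35000 transcripts, over 500 genes, over 1.2 transcripts per gene and over 500 spike-in counts. Inverting the adjustment gave whole UMIs (largest distance 3.64e-12). The adjustment had raised all counts by 1.15% and those of the ribosomal protein genes by 0.0887%.

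The UMIs were summed per library and identity and scaled to CPM (per 1e+06). Single genes were compared with at least 200 UMIs over both libraries, and a ratio was counted when past 1.5-fold. Shares have Clopper-Pearson, CPM Poisson and ratios of shares binomial intervals, all 95%. Doublets were not called beyond the authors' sort and filter. Genes named were the 10 members with most UMIs, the 5 highest and lowest ratios, the 5 widest over identities, the stalk genes, the paralogs, and 2 genes per other list, of which some are not reported here. Others were named after their values were seen, where a count was small. The members, lists and rules were chosen with earlier results of these data known. Ratios and Clopper-Pearson intervals were tested on simulated data that held counting error only, and thinned totals were checked on counted cells. The Poisson intervals and the intervals of ratios were not tested in this way. Tools were scipy 1.17.1, pandas 2.3.3 and numpy 2.4.6 in Python 3.11.15, and figures came from matplotlib 3.10.9. Alternatives comprised 38 planned settings and 9 chosen after seeing the data (the 2 identity weightings, the cells without nIPCs, neuroblasts and microglia, equal weight without mature neurons for 5 results, and cells of 2000 to 8000 UMIs).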

Additional observations from a re-analysis of the deposited data

Results flagged for a closer look

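Rows outside the name rule held UMIs that in sum lay above the 3 that a count of 0 allows in each library. The 5 processed copies with -ps names (Rpl31-ps12, Rplp2-ps1, Rps15a-ps4, Rps15a-ps6 and Rps19-ps3) summed to 10 UMIs in fresh and 14 UMIs in MeOH-fixed filtered cells, or 0.00187% and 0.00192% of all UMIs. Single copies had 1 to 6 UMIs per library. Rplp2-ps1 had 1 UMI in each library, where Rplp2 itself had 0 and 1. Rps4y2, the older symbol of Rps4l, had 13 UMIs in either library. These sequences are near copies of their parent genes, so the assignment of their UMIs is uncertain.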

How the results depend on the processing

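No paired analysis was possible because each condition has 1 library and the result comes from no test, and for the same reason no replicate could be left out. The log2 ratio of the pooled share, -0.23, stayed below 0 at -0.29 without mitochondrial genes in the total, -0.069 as the mean and -0.094 as the median of single cells, -0.090 after thinning to 800 UMIs, -0.18 without microglia, -0.13 for identities with at least 5 cells in each library and -0.20 for all barcodes. It reversed to 0.37 at equal weight for each identity and, among settings chosen after seeing the data, to 0.22 and 0.25 with the identity weights of the fresh and the MeOH-fixed library, 0.36 without nIPCs, neuroblasts and microglia and 0.33 at equal weight without mature neurons.

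Members higher by more than 1.5-fold numbered 0, and 1 without a minimum of UMIs, 1 after thinning and 16 at equal weight. Members lower by more than 1.5-fold numbered 7, and 0 at equal weight, 0 relative to the sum of members and 0 past 2-fold. Within identities, the log2 ratio moved to 0.070 in astrocytes and RGLs (cells of 2000 to 8000 UMIs), 0.32 and 0.29 in immature neurons (median of cells, thinned), 1.91 in mature neurons (thinned), 0.45 in OPCs (thinned), 0.52 in microglia and 0.95 in endothelial cells (median of cells). It reversed to -0.17 in nIPCs and neuroblasts and -0.068 in OPCs for cells of 2000 to 8000 UMIs and to -0.040 in oligodendrocytes after thinning.

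The log2 change of the ratio of large to small subunit reversed from 0.10 to -0.025 at equal weight for each identity and to -0.030 without mature neurons, a setting chosen after seeing the data. For failed against passed barcodes it reversed from -0.36 to 0.18 in the fresh library without mitochondrial genes, and moved to -0.087 as the median of barcodes in the fresh library and to -0.094 without mitochondrial genes in the MeOH-fixed library. At equal weight translation factors changed sign, from -0.042 (interval including 0) to 0.25, and to 0.16 without mature neurons, and ribosome biogenesis genes moved from 0.13 to 0.28, and to 0.18 without mature neurons. The mitochondrial ribosome was at 0.38 and 0.32. Of the single members named by rule whose pooled interval excluded 0, these reversed at equal weight of 6 identities: Rpl10 to 0.26, Rpl13 to 0.38, Rpl22 to 0.080, Rpl32 to 0.18, Rplp0 to 0.11, Rps12 to 0.38, Rps24 to 0.49, Rps3 to 0.064 and Rps9 to 0.065. Members with a pooled interval including 0 also changed sign, namely Rpl4 to 0.068, Rpl21 to 0.17, Rpl41 to 0.32, Rplp1 to 0.39 and Rps26 to 0.68. Except for the weightings, whose construction changes the identities counted, the cause was not tested. Depth limits single members in single identities, many of which rest on fewer than 10 UMIs.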
